A study of Mus musculus with 12 samples.

Results

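Mitochondrial ribosomal protein genes were taken as all genes whose symbol begins with Mrpl or Mrps followed by a number, without pseudogenes, and with at least 10 counts in 3 or more of 12 RNA-seq libraries. All 77 matching symbols met that limit, 48 with an Mrpl and 29 with an Mrps symbol, of 32699 symbols in the count table. The lowest count of a member in any library was 282 and the highest 7675, and all 77 also passed the low-count filter that left 13196 genes for testing. Mrpl58, a ribosome-bound peptidyl-tRNA hydrolase, stands in the table under its older symbol Ict1 and is therefore not among the 77. Its log2 fold change at 48 h over 24 h was -0.13 ± 0.08 in KKO cells, not called, and -0.27 ± 0.08 in WT cells, where it fell (± SE, as for all log2 fold changes here).

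Mitochondrial ribosomes translate the few messenger RNAs of mitochondrial DNA, all of which encode subunits of the respiratory chain or of the ATP synthase. Their own proteins are encoded in the nucleus, made on cytosolic ribosomes and imported into the organelle, where they assemble with mitochondrially transcribed ribosomal RNA. Activated T cells enlarge their mitochondria and need mitochondrial translation to grow and divide.

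The libraries came from mouse naïve CD4+ T cells stimulated in culture through CD3 and CD28 with antibodies, with RNA taken at 24 h and 48 h. Keap1 knockout cells, labelled KKO, were set against wild-type (WT) cells. Keap1 is the adaptor that hands the antioxidant transcription factor NRF2, encoded by Nfe2l2, to a ubiquitin ligase. The 4 groups, KKO at 48 h, WT at 48 h, KKO at 24 h and WT at 24 h, had 3 libraries each, and all of them received both antibodies. Strain, age and sex of the mice, the deleted exons and any Cre driver are not stated in the labels. The labels do not say whether the 3 libraries of each group represent different animals or different cultures. The p-values measure the spread between these libraries. As given next, each group mixed libraries with Xist and libraries with Y-linked transcripts, so the 3 libraries of a group were not repeats from 1 animal.

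Library totals were 17786533 to 21196430 expected counts in KKO cells and 18282930 to 22418032 in WT cells at 48 h, and 23700071 to 28419278 in KKO cells and 27393051 to 32607685 in WT cells at 24 h. Values are given in CPM, which scale each count to its library total, here after TMM adjustment. Keap1 stood at 22.5, 20.7 and 20.2 CPM in KKO cells against 124, 132 and 122 CPM in WT cells at 48 h, and at 16.5, 15.7 and 17.5 CPM in KKO cells against 106, 109 and 106 CPM in WT cells at 24 h. It was lower in all KKO libraries, with log2 fold changes of -2.57 ± 0.06 at 48 h and -2.69 ± 0.06 at 24 h. In 2 KKO libraries, replicate 3 of the 48 h group and replicate 1 of the 24 h group, Xist stood at 105 and 76.2 CPM and summed Y-linked transcripts at 149 and 125 CPM. In every other library Xist or the Y-linked sum was at most 2.83 CPM. Xist prevailed in replicate 2 of both KKO groups and in replicates 1 and 2 of both WT groups, and Y-linked transcripts prevailed in replicate 1 of the 48 h KKO group and in replicate 3 of the 24 h KKO group and of both WT groups. The part of sex in the comparisons was not tested. Without this pair of libraries the members called with time were 44 in KKO cells and 52 in WT cells, against 49 and 52 with them. The CD4 T cell markers (6 of 8 in the table) summed to 1138 to 1286 CPM in KKO and 1173 to 1255 CPM in WT cells at 48 h, and to 1229 to 1251 CPM in KKO and 1323 to 1409 CPM in WT cells at 24 h.

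By their place in mammalian ribosome structures, 50 members belong to the large subunit and 26 to the small subunit. The large subunit count includes Mrps30 and Mrps18a, which carry small subunit symbols, and Mrps36 is an adaptor of the 2-oxoglutarate dehydrogenase complex rather than a ribosomal protein. By their names in these structures, 46 members are classed as homologues of bacterial ribosomal proteins and 30 as specific to mitochondria. The 30 include Mrps18a and Mrps18b, which derive from a bacterial protein but are classed by the sites they now occupy. They lie on 17 chromosomes, with the largest number, 10, on chromosome 11. Per kilobase of transcript, the level averaged over the 12 libraries was highest for Mrpl12, the stalk protein that recruits translation factors, at 140.2 CPM per kilobase. Mrpl42 at 139.7 and Mrpl52 at 139 CPM per kilobase were close to it. The lowest was Mrpl47, at 6.71 CPM per kilobase. The lengths are those of the transcript with the longest coding sequence in GENCODE, so a gene mostly expressed from a shorter transcript is understated. Exons of 25 members overlap exons of another gene, 5 on the same strand and 21 on the opposite strand, and use of strand in counting is not given in the sources used here. Reads of those members and of their partners may not be told apart.

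Between 24 h and 48 h of activation the mitochondrial ribosomal genes fell as a group in both genotypes. Summed over the 77 members, expression was 3746, 3925 and 3626 CPM in KKO cells at 48 h against 4827, 4393 and 4602 CPM in KKO cells at 24 h. In WT cells the sum was 3788, 3794 and 3819 CPM at 48 h against 4418, 4777 and 4805 CPM at 24 h. All 48 h libraries lay below all 24 h libraries in both genotypes, a mean difference of -18.3% in KKO cells and -18.6% in WT cells. In a bulk sample, fewer cells of a type and less of these RNAs per cell cannot be told apart. Library totals were also lower at 48 h, and of the 6 CD4 T cell markers 1 was lower and 2 were higher at 48 h in KKO cells, and 4 were lower and 1 higher in WT cells. Markers of other cell types moved with time too. Both tested erythroid markers and 1 of 2 tested NK cell markers were lower and 1 of 2 tested dendritic cell markers was higher in each genotype. Of 7 tested B cell markers, 2 were higher and 1 lower in KKO cells and 2 higher in WT cells. Both tested macrophage markers and the 1 tested neutrophil marker were higher in KKO cells, and none of these was called in WT cells. Of the CD8 T cell markers, 1 was higher in KKO cells, and 1 was higher and 1 lower in WT cells. The summed erythroid markers stood at 1.13 to 1.43 CPM in KKO cells at 48 h against 3.66 to 5.30 CPM at 24 h, and at 0.221 to 1.09 CPM in WT cells at 48 h against 1.73 to 5.18 CPM at 24 h. The part of depth and of cell makeup in these differences was not tested.

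Of the 77 members, 43 were lower and 6 higher at 48 h than at 24 h in KKO cells, and 48 were lower and 4 higher in WT cells (edgeR quasi-likelihood test, called where the p-value adjusted by Benjamini-Hochberg across every tested gene was under 0.05). Over all genes tested, 33.4% were lower and 34.4% higher in KKO cells (67.8% in all), and 29.7% were lower and 31% higher in WT cells (60.8% in all). An unadjusted p under 0.05 was reached by 53 members in each genotype, beside 70.1% of all genes tested in KKO cells and 64.3% in WT cells. The members' median log2 fold change was -0.26 in KKO cells and -0.28 in WT cells, beside 0.00 and -0.00 over all genes tested. Among the 6053 genes with a mean level of 18.3 to 184 CPM, which spans the members, 43% were lower in KKO cells and 39% in WT cells, with medians of -0.08 and -0.06. The sizes were moderate: 12 members in KKO cells and 7 in WT cells differed by at least 1.5-fold, all of them lower at 48 h.

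Largely the same genes fell in both genotypes. All 43 members lower in KKO cells were among the 48 lower in WT cells, and in 42 of the 43 every 48 h library lay below every 24 h library in both genotypes. The exception, Mrps18b, had overlapping WT groups. Calls and overlap are read from the same libraries, so the 42 are not separate support. Neither of these joint counts was taken over all genes tested. Groups did not overlap for 44 members below and 8 above in KKO cells, beside 34.7% and 35.7% of all genes tested (70.4% in all), and for 48 below and 4 above in WT cells, beside 34% and 34.4% (68.4% in all). No member was called in opposite directions, and 23 were called in neither genotype. The KKO and WT effects, which share no library, had a Pearson correlation of 0.939 and a Spearman correlation of 0.933 across the 77 genes, beside 0.874 and 0.870 across all genes tested. Genes are not independent replicates, and these correlations describe the 12 libraries. The 43 comprised 27 large subunit and 16 small subunit proteins. Of these, 25 were classed as bacterial homologues and 18 as specific to mitochondria, with Mrps18a and Mrps18b among the 18.

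**Figure D1:**
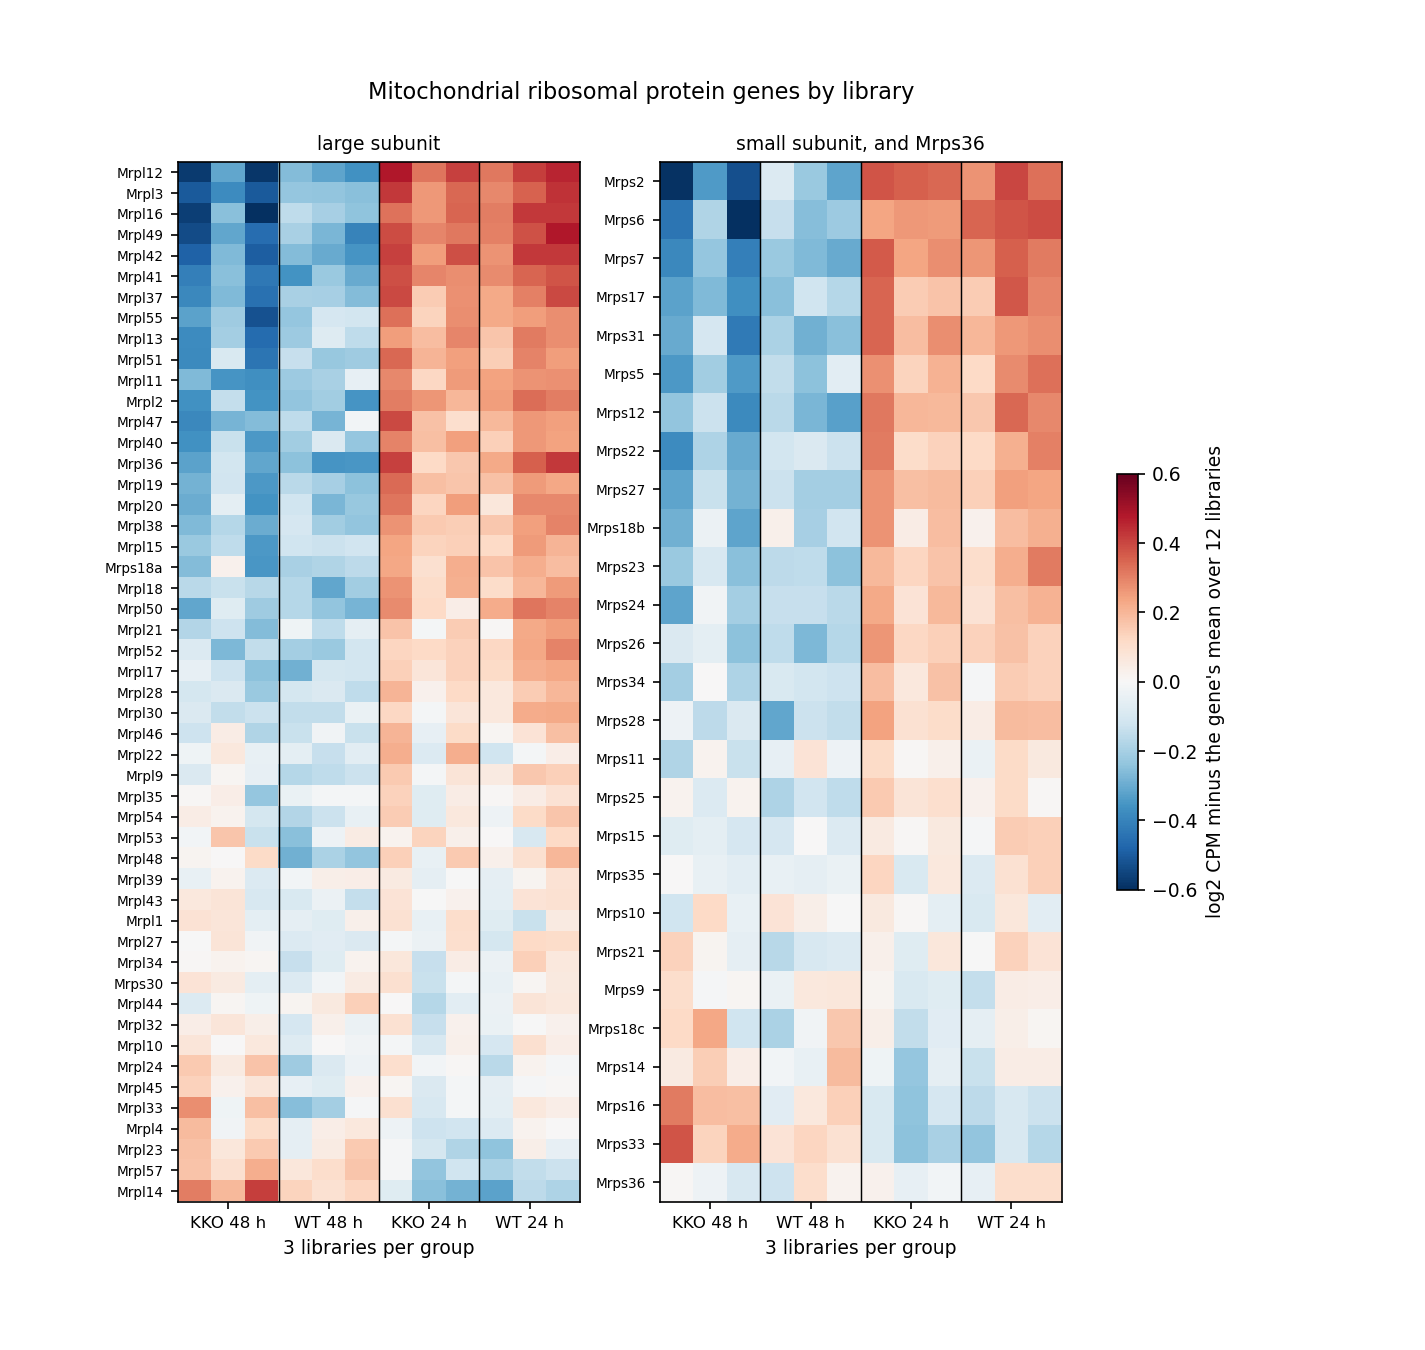
Expression of the 77 members in the 12 libraries as log2 CPM minus the gene's mean, with large subunit proteins on the left and small subunit proteins and Mrps36 on the right, sorted by the change with time in KKO cells. Most rows are blue at 48 h and red at 24 h in both genotypes, and a short block near the foot of each panel, with Mrpl14, Mrps33 and Mrps16, runs the other way.

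Mrpl12 had the largest fall in both genotypes. It stood at 119, 143 and 118 CPM in KKO cells at 48 h against 247, 221 and 236 CPM at 24 h, and at 148, 142 and 138 CPM in WT cells at 48 h against 221, 236 and 243 CPM at 24 h. The groups of the same genotype did not overlap. The log2 fold change was -0.89 ± 0.08 (adjusted p = 1.19e-07) in KKO cells and -0.71 ± 0.07 (adjusted p = 1.49e-06) in WT cells. Its gene, chr11:120484637-120488754, shares exon sequence with Gm16755 on the opposite strand. Mrpl10, which anchors the stalk, had 73.2, 69.6 and 72.6 CPM in KKO cells at 48 h against 68.9, 65.1 and 70.9 CPM at 24 h, and 66.0, 69.5 and 68.6 CPM in WT cells at 48 h against 64.8, 74.3 and 71.5 CPM at 24 h. Those groups overlapped in both genotypes, with log2 fold changes of 0.07 ± 0.06 and -0.05 ± 0.06, neither past the threshold. Mrpl11, at the stalk base, fell in both genotypes (log2 fold change -0.55 in KKO cells and -0.41 in WT cells).

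Other large subunit proteins fell as well. Mrpl3, an early assembly protein with a loop that reaches towards the peptidyl transferase centre, had 46.4, 50.6 and 46.5 CPM in KKO cells at 48 h against 88.4, 78.7 and 83.5 CPM at 24 h, and 56.1, 55.8 and 55.2 CPM in WT cells at 48 h against 80.3, 84.2 and 88.7 CPM at 24 h. Its log2 fold change was -0.81 ± 0.06 in KKO cells (adjusted p = 3.36e-08) and -0.60 ± 0.06 in WT cells (adjusted p = 7.02e-07), with no overlap between times. Mrpl16, which contacts transfer RNA near the same centre, had log2 fold changes of -0.80 ± 0.09 in KKO cells and -0.59 ± 0.09 in WT cells. The mitochondria-specific proteins Mrpl49, Mrpl42 and Mrpl41 had values of -0.77, -0.76 and -0.68 in KKO cells, and of -0.68, -0.68 and -0.63 in WT cells. Mrpl36, a small zinc-binding protein, fell by 0.48 on the log2 scale in KKO cells and by 0.65 in WT cells.

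In the small subunit, Mrps2, which sits between head and body, had 39.9, 47.5 and 41.7 CPM in KKO cells at 48 h against 78.1, 77.2 and 76.4 CPM at 24 h. In WT cells it had 56.9, 51.5 and 48.3 CPM at 48 h against 72.5, 79.3 and 75.5 CPM at 24 h. The times did not overlap in either genotype, and the log2 fold changes were -0.85 ± 0.07 (adjusted p = 1.17e-07) and -0.54 ± 0.07 (adjusted p = 1.17e-05). Mrps7, a head protein, had log2 fold changes of -0.64 ± 0.06 in KKO cells and -0.58 ± 0.06 in WT cells. Mrps6, a protein of the platform, had -0.66 ± 0.08 and -0.58 ± 0.08, and its exons overlap those of Slc5a3 on the same strand. Mrps12, the decoding centre protein, fell with log2 fold changes of -0.49 ± 0.07 in KKO cells (adjusted p = 3.67e-05) and -0.52 ± 0.07 in WT cells (adjusted p = 2.58e-05).

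A few members rose. Mrpl14, a protein of the surface that joins the subunits, had 23.9, 22.2 and 25.8 CPM in KKO cells at 48 h against 18.4, 16.3 and 15.9 CPM at 24 h, and 21.3, 20.6 and 21.2 CPM in WT cells at 48 h against 15.5, 17.4 and 17.0 CPM at 24 h. Every 48 h library was above every 24 h library of its genotype, and the log2 fold changes were 0.51 ± 0.08 (adjusted p = 6.85e-05) and 0.34 ± 0.08 (adjusted p = 0.00252). The other members called higher in both genotypes were Mrps33, Mrps16 and Mrpl57. Mrps33, a mitochondria-specific small subunit protein, had 62.5, 52.8 and 56.1 CPM in KKO cells at 48 h against 45.1, 40.5 and 42.1 CPM at 24 h, a log2 fold change of 0.43 ± 0.07, and of 0.27 ± 0.07 in WT cells. Mrps16, a protein of the body, had 0.37 ± 0.07 in KKO cells and 0.18 ± 0.07 in WT cells, where its adjusted p of 0.0415 lay close to the threshold. It ranged up to 0.127 when 1 library was left out, and the call was lost without any WT library except replicate 1 of the 48 h group, and also without replicate 3 of the 24 h KKO group. Mrpl57, a mitochondria-specific large subunit protein, had 0.28 ± 0.07 and 0.27 ± 0.07. Mrpl23, beside the exit of the nascent chain, and Mrpl4, with a loop in the tunnel wall, were called higher in KKO cells, with 0.23 ± 0.08 and 0.18 ± 0.06. Their values in WT cells were 0.14 ± 0.08 and 0.04 ± 0.06, and their changes were not shown to differ between the genotypes (adjusted p of the difference 0.645 and 0.329).

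Subsets by site in the particle are given as counts, without a test between sites. Over all 77 members, 55.8% were lower in KKO cells and 62.3% in WT cells, beside 33.4% and 29.7% of all genes tested. Members called higher were 7.79% and 5.19%, beside 34.4% and 31% of all genes tested. The subsets are too short to set against those shares. Of 7 central protuberance proteins, which sit where the large subunit meets transfer RNA, 4 were lower in KKO cells with a median log2 fold change of -0.35, and 5 in WT cells with a median of -0.39. Of 6 proteins set around the exit tunnel (Mrpl17, Mrpl22, Mrpl23, Mrpl24, Mrpl45 and Mrpl47, without Mrpl4), 2 were lower and 1 higher in KKO cells with a median of -0.02, and 2 were lower in WT cells with a median of -0.06. Mrpl45, which tethers the exit to the inner membrane, had 106, 98.2 and 101 CPM in KKO cells at 48 h against 97.2, 90.7 and 95.5 CPM at 24 h, and 93.1, 91.6 and 98.1 CPM in WT cells at 48 h against 92.9, 95.9 and 97.0 CPM at 24 h. Its 48 h libraries lay above its 24 h libraries in KKO cells and overlapped them in WT cells, and neither change was called (log2 fold change 0.11 ± 0.05 and -0.02 ± 0.05). The summed large subunit to small subunit ratio was 2.08, 2.05 and 2.08 in KKO and 2.01, 2.05 and 2.05 in WT cells at 48 h, and 2.10, 2.07 and 2.10 in KKO and 2.10, 2.08 and 2.12 in WT cells at 24 h. The summed large subunit genes differed with time by -18.7% in KKO cells and -19.5% in WT cells, and the small subunit genes by -17.8% and -17%.

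The Mrps18 paralogs, which derive from the same bacterial ancestor but occupy different sites, had different calls. Mrps18a, a large subunit protein, had 41.9, 51.1 and 39.4 CPM in KKO cells at 48 h against 59.0, 53.8 and 58.4 CPM at 24 h, without overlap, a log2 fold change of -0.37 ± 0.08, and of -0.37 ± 0.08 in WT cells. Mrps18b fell with -0.38 ± 0.09 in KKO cells and -0.24 ± 0.09 in WT cells. Mrps18c, the paralog in the bacterial position, had 20.7, 22.3 and 17.5 CPM in KKO cells at 48 h against 19.5, 17.2 and 18.2 CPM at 24 h and was not called, at 0.14 ± 0.10 in KKO cells and -0.01 ± 0.10 in WT cells. Differences between the paralogs were not tested. Mrps36, the dehydrogenase adaptor, had -0.03 ± 0.07 and -0.05 ± 0.07, and Mrps30 had 0.04 ± 0.06 and -0.03 ± 0.06. The other members called in neither genotype were Mrpl1, Mrpl10, Mrpl22, Mrpl24, Mrpl27, Mrpl32, Mrpl33, Mrpl34, Mrpl35, Mrpl39, Mrpl43, Mrpl44, Mrpl45, Mrpl46, Mrpl53, Mrps9, Mrps10, Mrps11, Mrps14 and Mrps35.

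**Figure D2:**
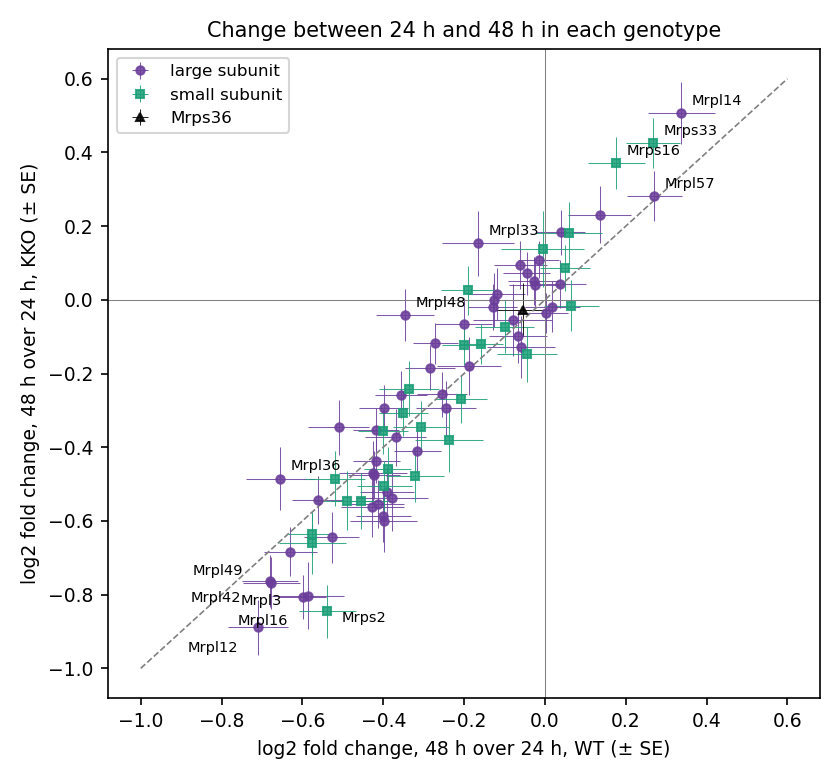
Log2 fold change of each member at 48 h over 24 h, with KKO cells on the vertical axis and WT cells on the horizontal axis, bars giving the standard error and the dashed line equal change. Points run near the dashed line from Mrpl12 at -0.89 in KKO cells and -0.71 in WT cells to Mrpl14 at 0.51 and 0.34, and Mrpl48 and Mrpl33 lie above it.

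The promoter windows of RefSeq (GRCm38.p6, 250 bases before to 50 bases after each start) held 68 of the 77 members in 74 windows. Each motif was searched on both strands. The NRF1 motif, GCGC and TGCGC with 1 base of any kind between them, bound by a regulator of nuclear genes for mitochondria, was in 17.6% of the members' windows, beside 10.2% of windows of genes tested and 4.60% of all windows. Its core TGCGCA, which can overlap it, was in 28.4%, 13.7% and 7.76% of these windows. The ETS motif CCGGAAG, the kind bound by GABP, was in 33.8%, 17.8% and 8.86%, and the YY1 motif ATGGCGGC in 16.2%, 4.79% and 2.24%. The antioxidant response element TGACNNNGC, which NRF2 binds with small MAF proteins, was in 17.6% of the members' windows, beside 14.5% of windows of genes tested and 12.4% of all windows. The E-box CACGTG, which MYC with MAX can bind, was in 9.46%, 10.1% and 7.15%. Median GC content was 58.5%, 60.7% and 52.7%.

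Members lower at 48 h in both genotypes (39 windows) held the NRF1 motif in 10.3% of windows and the E-box in 15.4%, against 25.7% and 2.86% of the other members' 35 windows. The NRF1 core was in 25.6% and 31.4%, and the ETS motif in 33.3% and 34.3%. The YY1 motif was in 12.8% and 20%, and the antioxidant response element in 17.9% and 17.1%. These shares rest on few windows and describe letters, not binding. The 120 bases before the start are shown for 6 members, with any searched motif in capitals. These members were chosen after their values were seen, 4 that fell with time and 2 that rose, with and without motifs.

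Mrpl12, fell, chr11:120484517-120484636, plus strand: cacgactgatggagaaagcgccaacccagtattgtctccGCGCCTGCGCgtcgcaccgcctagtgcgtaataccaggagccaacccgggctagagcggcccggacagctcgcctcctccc
Mrpl3, fell, chr9:105053148-105053267, plus strand: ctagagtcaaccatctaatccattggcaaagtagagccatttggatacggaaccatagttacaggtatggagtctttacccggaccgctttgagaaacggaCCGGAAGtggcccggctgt
Mrps7, fell, chr11:115604020-115604139, plus strand: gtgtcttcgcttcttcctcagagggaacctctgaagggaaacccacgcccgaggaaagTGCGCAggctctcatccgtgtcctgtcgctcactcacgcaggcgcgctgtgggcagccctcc
Mrps2, fell, chr2:28467946-28468065, plus strand: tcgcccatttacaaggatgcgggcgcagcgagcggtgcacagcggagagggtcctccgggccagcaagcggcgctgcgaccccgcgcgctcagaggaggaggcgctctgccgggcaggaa
Mrpl57, rose, chr14:57826119-57826238, plus strand: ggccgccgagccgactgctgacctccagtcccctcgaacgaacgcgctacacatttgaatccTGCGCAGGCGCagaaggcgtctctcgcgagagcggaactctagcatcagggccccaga
Mrpl14, rose, chr17:45686229-45686348, plus strand: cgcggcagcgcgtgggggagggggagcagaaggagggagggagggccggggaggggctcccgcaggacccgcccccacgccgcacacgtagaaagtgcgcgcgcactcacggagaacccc

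The NRF1 motif begins 81 bases before the start of Mrpl12, which fell, and 57 bases before that of Mrpl57, which rose and in which the core overlaps it. The core alone lies 62 bases before the start of Mrps7, and the ETS motif 19 bases before that of Mrpl3. Mrps2 and Mrpl14 hold none of the 6 motifs in these 120 bases. The 6 were picked to show members that fell and that rose, with and without motifs, so this layout follows from the choice. The printed bases of Mrps2, Mrpl57 and Mrpl14 precede a start that lies inside the outer bounds of the gene, so those of Mrps2 and Mrpl14 fall within it and those of Mrpl57 overlap it in part. Among the 6 members called between genotypes at 48 h, Mrpl48 had 4 windows and each other member 1. The ETS motif was in the windows of Mrpl33 and Mrpl3 and in 1 of the 4 of Mrpl48. The antioxidant response element was in that of Mrpl16, and no searched motif in those of Mrpl24 and Mrps2.

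Proteins and factors that work with the mitochondrial ribosome were read from the same fit. The 5 ribosomal proteins without an Mrp symbol had mixed calls: 1 was lower and 3 were higher at 48 h in KKO cells, and 1 was lower and 2 were higher in WT cells. Ptcd3, a pentatricopeptide protein of the small subunit, fell (-0.54 ± 0.07 in KKO cells and -0.38 ± 0.07 in WT cells), whereas Dap3, the GTP-binding protein of its head, rose (0.32 ± 0.07 and 0.18 ± 0.07). Gadd45gip1, a large subunit protein, rose with 0.33 ± 0.06 and 0.20 ± 0.06. Of 23 tested assembly and ribosomal RNA modification factors, 11 were lower and 3 higher in KKO cells, and 10 were lower and 1 higher in WT cells. The lower ones were 47.8% and 43.5% of the list, beside 33.4% and 29.7% of all genes tested and 43% and 39% of genes at the members' level. Fastkd2, which binds the large ribosomal RNA, had 21.4, 28.3 and 21.2 CPM in KKO cells at 48 h against 57.4, 53.5 and 57.3 CPM at 24 h, and 33.6, 31.6 and 28.6 CPM in WT cells at 48 h against 53.6, 58.8 and 58.8 CPM at 24 h, log2 fold changes of -1.25 ± 0.10 and -0.87 ± 0.10 without overlap. The GTPases Gtpbp10 and Mtg2, which act late in large subunit assembly, fell by 1.08 and 0.98 on the log2 scale in KKO cells and by 0.87 and 0.78 in WT cells. Trmt2b, a methyltransferase of mitochondrial RNA, rose in both genotypes, with 0.85 ± 0.08 in WT cells.

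Of 15 translation factors, 7 were lower in each genotype, and 2 were higher in KKO cells and 1 in WT cells. The share lower, 46.7% in each, was close to the 43% and 39% of genes at the members' level. The elongation factor Gfm1 fell by 0.96 in KKO cells and 0.74 in WT cells on the log2 scale, the elongation factor Tufm by 0.49 and 0.64, and the mRNA-stabilising Lrpprc by 0.72 and 0.58. Of 10 factors that transcribe and copy mitochondrial DNA, 6 were lower and 1 higher in KKO cells, and 5 were lower and 1 higher in WT cells, a list too short to set against those shares. Among these, Polrmt, the mitochondrial RNA polymerase, had -0.67 ± 0.06 and -0.50 ± 0.06.

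Respiratory chain genes, here taken with those of the ATP synthase, were more often higher than lower at 48 h in KKO cells. Most of their products assemble with proteins made on mitochondrial ribosomes. The nuclear respiratory chain genes summed to 11930, 11369 and 11187 CPM in KKO cells at 48 h against 10825, 9606 and 10238 CPM at 24 h, and to 10724, 10726 and 11062 CPM in WT cells at 48 h against 9790, 10795 and 10719 CPM at 24 h. Of 82 tested, 46 were higher and 10 lower at 48 h in KKO cells with a median of 0.19, and 21 were higher and 14 lower in WT cells with a median of 0.04. In KKO cells these were 56.1% higher and 12.2% lower, beside 34.4% and 33.4% of all genes tested. In WT cells they were 25.6% and 17.1%, both below the 31% and 29.7% of all genes tested. Cytosolic ribosomal protein genes summed to 113645, 98853 and 107062 CPM in KKO cells at 48 h against 80776, 72356 and 76266 CPM at 24 h, and to 89131, 96356 and 99877 CPM in WT cells at 48 h against 75063, 82891 and 80913 CPM at 24 h. Of 80 tested, 77 were higher in KKO cells and 56 in WT cells, and none was lower in either (edgeR, with 77 and 61 at an unadjusted p under 0.05 in any direction). The higher ones were 96.2% and 70% of the list, beside the 34.4% and 31% of all genes tested. CPM values are shares of a library, and the part of the larger cytosolic ribosomal share in the members' lower values was not tested.

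**Figure D3:**
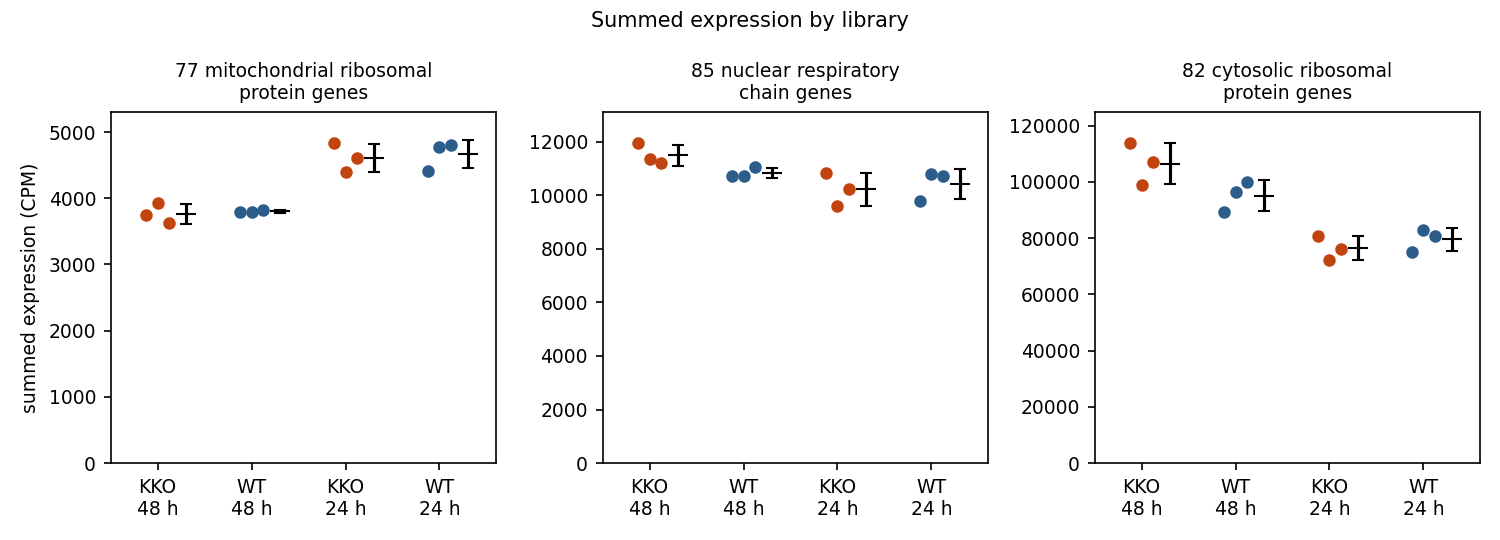
Summed expression in CPM of 3 gene groups by library, with points for libraries and black bars for the mean and SD of 3 libraries. The mitochondrial ribosomal sum is lower at 48 h, at 3626 to 3925 CPM in KKO cells and 3788 to 3819 CPM in WT cells, than at 24 h, whereas the cytosolic ribosomal sum is higher.

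At 24 h no member was called between KKO and WT cells. The members' sum was 4827, 4393 and 4602 CPM in KKO cells against 4418, 4777 and 4805 CPM in WT cells, overlapping groups with a mean difference of -1.27%. The 77 gave 0 calls by edgeR, limma-voom or DESeq2, and 0 had an unadjusted p under 0.05 in edgeR. Of all genes tested, 2.33% were called (1.89% higher and 0.432% lower) and 11.2% had an unadjusted p under 0.05. The median log2 fold change was -0.02, with values between -0.13 for Mrpl50 and 0.15 for Mrpl22. Mrpl22, which lines the exit tunnel, had 32.7, 26.5 and 32.7 CPM in KKO cells against 25.9, 27.9 and 28.9 CPM in WT cells, overlapping groups with a log2 fold change of 0.15 ± 0.08 (adjusted p = 0.566). Mrpl50, a mitochondria-specific large subunit protein, had 48.1, 43.0 and 40.6 CPM in KKO cells against 46.2, 49.4 and 48.6 CPM in WT cells, again overlapping, with a log2 fold change of -0.13 ± 0.07 (adjusted p = 0.591). The next smallest p-values were those of the large subunit proteins Mrpl30, Mrpl44 and Mrpl52, at log2 fold changes of -0.11, -0.11 and -0.09. Mrps6 alone had non-overlapping groups, lower in KKO cells, beside 9.46% of all genes tested that were below and 9.93% above (19.4% in all).

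At 48 h the sum was 3746, 3925 and 3626 CPM in KKO cells against 3788, 3794 and 3819 CPM in WT cells, a mean difference of -0.908% with overlapping groups. Single members differed by small amounts in both directions: 3 were higher and 3 lower in KKO cells, 7.79% of the members beside 24.3% of all genes tested, of which 12.4% were higher and 11.9% lower. Among genes within the members' range of levels, 29.6% were called. The median log2 fold change was -0.01, beside -0.00 over all genes tested. The median size of the difference, without its sign, was 0.08 for the members and 0.14 for genes of like level. An unadjusted p under 0.05 was reached by 18 members, and by 38.3% of all genes tested. Groups did not overlap for 23 members, 14 above and 9 below WT cells, beside 17.1% and 16.2% of all genes tested (33.2% in all).

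Mrpl33, a small protein whose bacterial homologue lies near the exit site for transfer RNA, had 37.1, 30.1 and 34.7 CPM in KKO cells against 25.7, 26.6 and 30.5 CPM in WT cells at 48 h. KKO replicate 2 lay just below WT replicate 3, so the groups overlapped, and the log2 fold change was 0.30 ± 0.09 (adjusted p = 0.0259). Mrpl48, of the central protuberance, had 36.9, 36.6 and 39.6 CPM in KKO cells against 29.9, 32.0 and 31.0 CPM in WT cells. All its KKO libraries were above all WT libraries, with a log2 fold change of 0.28 ± 0.07 (adjusted p = 0.0122). Mrpl24, near the tunnel exit, had 67.9, 63.3 and 68.6 CPM in KKO cells against 52.5, 57.3 and 59.7 CPM in WT cells, again without overlap, and 0.24 ± 0.07 (adjusted p = 0.0191). All of these higher members share exon sequence with another gene: Mrpl33 (chr5:31613951-31622644) with Gm43809 on its own strand, Mrpl48 (chr7:100545779-100608301) with Rab6a and Mrpl24 (chr3:87918131-87923450) with Rrnad1 on the opposite strand. Among the 52 members with no such overlap, none was called higher and 3 (5.77%) were called lower. Of all genes tested, 12.4% were higher and 11.9% lower. The part of the overlaps in these few calls was not tested.

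Mrpl16 (chr19:11770415-11774956) had 21.6, 26.9 and 19.9 CPM in KKO cells against 28.8, 27.9 and 27.0 CPM in WT cells at 48 h. KKO replicate 2 lay just below the lowest WT library and the other KKO libraries well below it, with a log2 fold change of -0.29 ± 0.09 (adjusted p = 0.0318). Mrps2 (chr2:28465951-28471177) had 39.9, 47.5 and 41.7 CPM in KKO cells against 56.9, 51.5 and 48.3 CPM in WT cells, and -0.28 ± 0.07 (adjusted p = 0.0131). Mrpl3 (chr9:105053268-105077466) had 46.4, 50.6 and 46.5 CPM in KKO cells against 56.1, 55.8 and 55.2 CPM in WT cells, and -0.22 ± 0.06 (adjusted p = 0.0175). KKO and WT libraries did not overlap for any of these lower members, and in Mrps2 the gap was under 1 CPM. All 3 were also among the 8 largest falls with time in KKO cells, a comparison that uses the same 48 h KKO libraries.

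**Figure D4:**
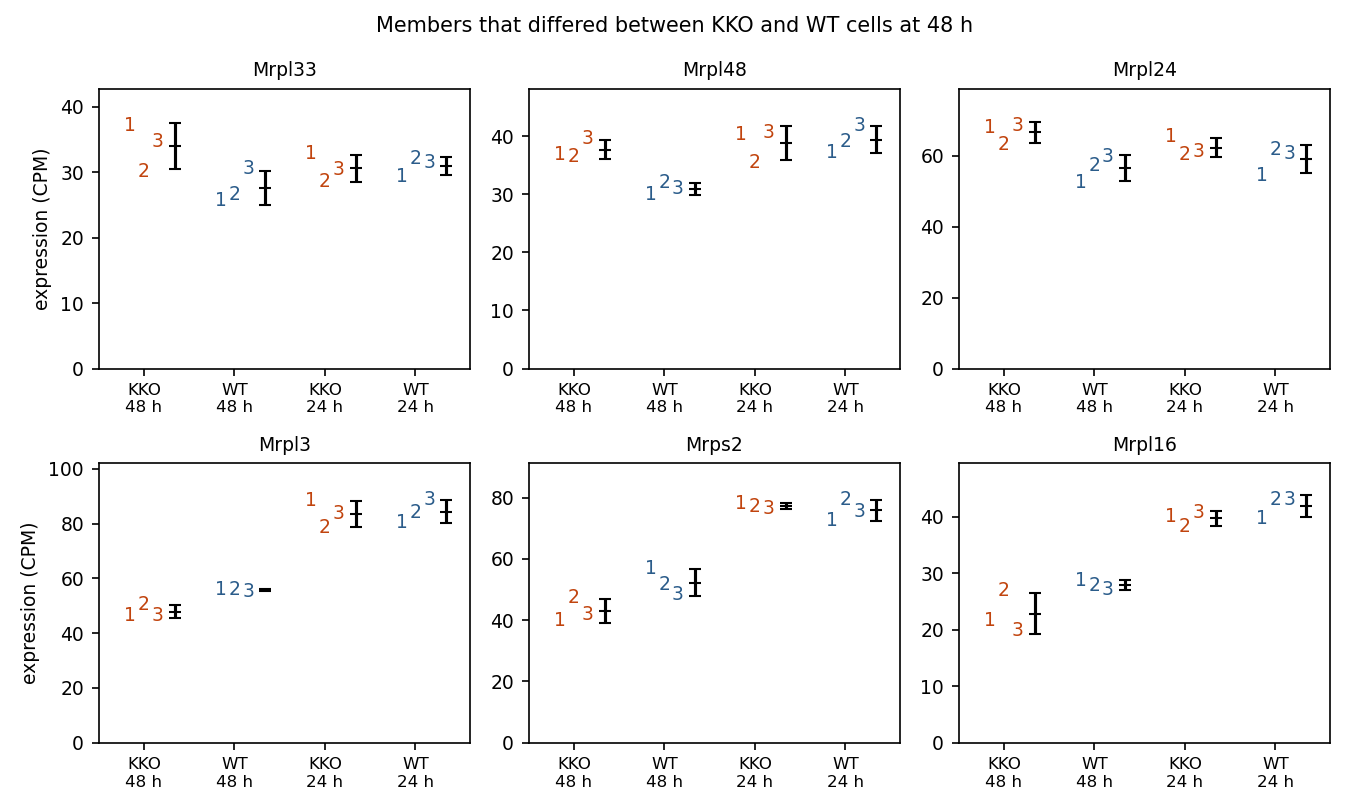
Expression in CPM of the 6 members called between KKO and WT cells at 48 h, with digits marking the replicate of each library and black bars the mean and SD of 3 libraries. Mrpl33, Mrpl48 and Mrpl24 are higher and Mrpl3, Mrps2 and Mrpl16 lower in KKO cells at 48 h, by at most 0.30 on the log2 scale, and KKO and WT libraries mix at 24 h.

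These genotype calls rested on few libraries. Shares of all genes called in the fits below are not given, so their counts are not read as particular to the members. Leaving replicate 2 out of the 48 h KKO group gave 27 called members, 7 higher and 20 lower. Leaving out replicate 1 of that group gave 1 called member, Mrpl48, and leaving out replicate 3 gave 0. In the 48 h WT group, leaving out replicate 1 gave 2 and leaving out replicate 2 gave 4. A fit to the 6 libraries of 48 h alone called 1, and a fit without the pair of libraries with both kinds of transcript, Xist and Y-linked, called 0, with adjusted p of 0.0727 to 0.179 for the 6 members. Replicate 2 of the 48 h KKO group had the highest member sum of its group and the highest summed B cell markers, 42.8 CPM. B cell markers moved with genotype: of 8 markers, 7 were tested, and 6 were higher in KKO cells at 48 h and 4 at 24 h. Their sum was 32.9 to 42.8 CPM in KKO against 14.4 to 19.6 CPM in WT cells at 48 h, and 23.2 to 32.2 CPM in KKO against 11 to 14.9 CPM in WT cells at 24 h. Both CD8 T cell markers were higher in KKO cells at 48 h, with sums of 12.7 to 13.4 CPM in KKO against 8.32 to 10.6 CPM in WT cells. Neutrophil markers summed to 0.736 to 3.49 CPM in KKO against 0 to 0.332 CPM in WT cells at 48 h, with S100a9 at 0 in every library, and macrophage markers to 15.2 to 21.9 CPM in KKO against 13.1 to 14.9 CPM in WT cells. The part of other cells in the genotype differences was not tested.

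No member's genotype effect was shown to differ between 48 h and 24 h. The calls were 0 by edgeR, limma-voom and DESeq2, beside 4.18% of all genes tested (1.46% higher and 2.72% lower), and 5 had an unadjusted p under 0.05 in edgeR, beside 22.6% of all genes tested. The smallest p-values were those of Mrps2, with a difference of effects of -0.31 ± 0.10 (adjusted p = 0.0905), Mrpl48 with 0.30 ± 0.10 (adjusted p = 0.0949), and Mrpl33 with 0.32 ± 0.13 (adjusted p = 0.152). Mrpl48 was among the 5 members called lower with time in WT cells and not called in KKO cells. It had 29.9, 32.0 and 31.0 CPM at 48 h against 37.3, 39.0 and 41.9 CPM at 24 h in WT cells (-0.35 ± 0.07), and 36.9, 36.6 and 39.6 CPM at 48 h against 40.3, 35.4 and 40.6 CPM at 24 h in KKO cells (-0.04 ± 0.07). The others were Mrpl9, Mrpl54, Mrps15 and Mrps21. Leaving out replicate 2 of the 48 h KKO group, the difference of effects was called for 9 members, 2 positive and 7 negative. The share of all genes called in that fit is not given either.

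Genes that work with the mitochondrial ribosome were also compared between KKO and WT cells. At 24 h none was called in any of these lists by edgeR, beside 2.33% of all genes tested, with 2 of 23 assembly factors and 0 genes of the other lists at an unadjusted p under 0.05. Fastkd2 had 21.4, 28.3 and 21.2 CPM in KKO cells against 33.6, 31.6 and 28.6 CPM in WT cells at 48 h, a log2 fold change of -0.41 ± 0.10 (adjusted p = 0.0106). Gtpbp10 and Mtg2 were lower by 0.27 and 0.26, and Trmt2b was higher by 0.33, so that 4 of 23 assembly factors were called, 17.4% beside 24.3% of all genes tested. None of 15 translation factors was called, with 2 at an unadjusted p under 0.05. Tfam, which packages and transcribes mitochondrial DNA, had 49.3, 56.3 and 49.2 CPM in KKO cells against 61.7, 64.2 and 62.1 CPM in WT cells (-0.28 ± 0.07, adjusted p = 0.0112). Ptcd3 was lower with -0.24 ± 0.07.

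Regulators of nuclear genes for mitochondria were lower in KKO cells at 48 h in 5 of 9 cases, with a median of -0.21 over the 9. Lower genes were 11.9% of all genes tested and 16.7% of genes at the members' level. The list, chosen with earlier results known, is too short to set against those shares. Fits with 1 library left out were read for members only. How far the calls of these regulators and of the related lists rest on single libraries was not tested. Ppargc1b, a coactivator of NRF1 and oestrogen-related receptors, had 2.46, 5.6 and 4.63 CPM in KKO cells against 7.72, 7.16 and 6.12 CPM in WT cells, a log2 fold change of -0.73 ± 0.20 (adjusted p = 0.0189). Myc, a transcription factor of cell growth, had 444, 574 and 459 CPM in KKO cells against 698, 684 and 631 CPM in WT cells, with -0.45 ± 0.09 (adjusted p = 0.00231) and no overlap. Pprc1, a related coactivator, had -0.36 ± 0.11, the GABP subunit gene Gabpb1 -0.25 ± 0.06, and Nrf1 -0.21 ± 0.07. With time, 6 of the 9 were lower in KKO cells and 3 in WT cells, beside 33.4% and 29.7% of all genes tested, again too short a list for those shares. At 24 h Ppargc1b had 14.1, 13.3 and 13.3 CPM in KKO cells and 14.5, 13.4 and 14.6 CPM in WT cells, so that it fell with time by log2 fold changes of -1.69 ± 0.19 in KKO cells and -1.02 ± 0.18 in WT cells. The difference of genotype effects between times was called for none of the 9, with 4 at an unadjusted p under 0.05. Nfe2l2 itself had log2 fold changes of 0.03 ± 0.06 at 48 h and -0.01 ± 0.06 at 24 h between KKO and WT cells.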

How the data were processed

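Total RNA of activated mouse CD4+ T cells was made into 12 mRNA libraries and sequenced as paired reads, per the labels' protocols. The deposited values are expected counts per gene from RSEM, with FastQC and the mm10 build named in the submitters' processing notes, without versions. The series text names a human reference, which does not match the mouse gene symbols in the table. Columns were matched to samples by genotype, number and day in the header, and 6 further columns of the table were not used. Expected counts were rounded to whole numbers, and 10.8% to 12.7% of values per library had a fraction. Replicates of a group differed by more than counting noise (chi-square over degrees of freedom 5.98 to 24.4), so all 12 libraries were kept.

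The low-count filter was edgeR's filterByExpr over the 4 groups, which left 13196 of 32699 symbols, and libraries were scaled by TMM. The test was that of edgeR 4.0.16 under R 4.3.3 (quasi-likelihood F test, robust, 1 mean per group over 12 libraries, 8 residual degrees of freedom), with Benjamini-Hochberg adjustment over all tested genes and a threshold of 0.05. The 5 comparisons were KKO against WT at each time, 48 h against 24 h in each genotype, and the difference of the KKO effects. SEs were derived from the F statistic. The fit was also run on simulated counts in which few genes changed, unlike the time comparisons here, and no result rests on it. DESeq2 1.42.0 and limma-voom (limma 3.58.1), other scalings, filters, thresholds, blocks and left-out libraries were alternatives.

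Members, roles and gene lists were chosen with earlier results of these data known. The text names Keap1 and Nfe2l2, up to 12 called members per direction and genotype comparison (5 with the smallest p where fewer than 3 were called), up to 8 per direction and time comparison, the 3 with the smallest p for the difference of effects, a fixed set of structural examples, and up to 4 called genes per related list. The promoters were to be those of the members with the largest KKO effect at 48 h. The 6 printed were instead chosen after values were seen, to show members that fell and that rose with time, with and without motifs. The symbol Mrpl53 had the lowest mean level, 18.3 CPM, and Mrpl12 the highest, 184 CPM. All 77 members were found in the RefSeq gene table. Fractional counts, which arise where RSEM shares reads between genes, occurred in 22 members.

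Deviations from the group means correlated at 0.126, 0.103 and 0.343 between same-numbered WT libraries of the 2 times. Differently numbered WT pairs gave -0.237 to 0.151, so only replicate 3 lay above all of them. The WT time comparison was also fitted with the replicate number as a block. It called 52 members, as did the fit without it. The pairing comes from the numbers in the sample titles.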

Additional observations from a re-analysis of the deposited data

How the results depend on the processing

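Alternatives were 2 scalings, 3 filters, 2 tools, 2 thresholds, the compared libraries alone, replicate blocks, each library left out, and the pair of libraries with both Xist and Y-linked transcripts left out. The 2 time comparisons called 46 to 54 members in KKO cells and 47 to 54 in WT cells when 1 library was left out. With a fold of at least 1.5 added, 12 members were called in KKO cells, 7 in WT cells and 0 between genotypes at 48 h. At an adjusted p under 0.01 the genotype comparison at 48 h called 0 members. It called 0 to 27 members when 1 library was left out, 1 with only the libraries compared and 0 without the pair of libraries with both Xist and Y-linked transcripts, against 6 in full. At 24 h it called 0 under every alternative run. The difference of effects called 0 to 9 when 1 library was left out, 9 without KKO replicate 2 at 48 h. Shares of all genes called in the fits with left-out libraries are not given beside these counts. Medians ranged with 1 library left out from -0.04 to 0.01 for KKO over WT at 24 h and from -0.07 to 0.02 at 48 h, and from -0.072 to 0.049 for the difference of effects, -0.29 to -0.24 for time in KKO cells and -0.33 to -0.26 in WT cells. Without the pair of libraries with both Xist and Y-linked transcripts they were 0.076 for the difference of effects and -0.19 for time in KKO cells. A replicate block gave 4 called members for the genotypes at 48 h, 0 at 24 h, 0 for the difference of effects, 48 for time in KKO cells and 52 in WT cells, and it moved no count by over 1.5 times. Across times the same-numbered WT libraries matched in Xist and Y-linked transcripts, whereas of the KKO libraries only replicate 2 did. Deviations of same-numbered libraries correlated at 0.0287 to 0.0852 across times in KKO cells, and between KKO and WT cells at -0.317 to 0.224 at 24 h and -0.249 to 0.135 at 48 h. The cause of these changes was not tested. Of 240 alternative values for counts and medians, 226 stayed within 1.5 times the count or within the replicate spread of the median, and 14 did not, and of 960 for single genes, 889 kept their side of the threshold, 68 lost it and 3 gained it. The medians between genotypes and of the difference of effects lie near 0 and changed sign with 1 library left out, as their ranges show. None of the named genes run under these alternatives changed direction, and no scaling moved the median of all genes by over 0.1.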
